A study of Rattus norvegicus with 12 samples.

Results

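The doublecortin family comprises 4 genes, Dcx, Dclk1, Dclk2 and Dclk3, which were matched by symbol, ignoring case, among 26404 genes of the deposited polyA table. Neuron-enriched hippocampal cultures were prepared from Sprague-Dawley rats at embryonic day 18. They received vehicle or picrotoxin, a blocker of the chloride channel of GABA-A receptors, from 18 days in vitro for 48 h, and RNA was extracted at day 20. Vehicle (control) and picrotoxin cultures gave 3 polyA libraries each, and small RNA libraries came from the same RNA preparations. The sample names carry the numbers 3, 10 and 20 in both arms, used below as replicate numbers; what a number marks is not stated. The submitters call the 3 replicates of an arm biological, without saying whether they are separate preparations of neurons, so p-values measure the spread between these libraries.

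Doublecortin is a protein that binds between the protofilaments of microtubules through a tandem of doublecortin domains. It stabilises and bundles microtubules in migrating and newly formed neurons, and its loss causes lissencephaly in people. Dclk1 and Dclk2 encode proteins with the same kind of tandem followed by a serine/threonine kinase domain related to the calmodulin-dependent kinases, while Dclk3 is the more distant member, known mainly as a kinase. Dclk1 also gives rise to short transcripts without the doublecortin domains. RefSeq lists Cpg16 and Ania4 among the synonyms of Dclk1, names that come from screens for transcripts induced by neuronal activity. The tables hold 1 value per gene, so long and short Dclk1 forms were not told apart.

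The study's title names miR-129-5p, a brain-enriched microRNA, and the study's work links it to Dcx. Its mature sequence is shown because the level of Dcx is set beside it below. It is given 5′ to 3′ with the seed, bases 2 to 8, in capitals, from RefSeq on GRCr8, where the same 21 bases stand at chr3:100657448-100657468 (minus strand, Mir129-2) and chr4:58589716-58589736 (plus strand, Mir129-1).

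miR-129-5p: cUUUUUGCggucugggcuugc

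Its seed pairs with GCAAAAA in a transcript. No other mature microRNA of the RefSeq table had this seed. Sequences of the 3′ UTRs were not used here, so sites in the family were not searched.

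In control cultures Dclk1 was by far the most abundant member, with 227 FPKM in the authors' deposited table, against 54.8 FPKM for Dcx, 38.7 FPKM for Dclk2 and 0.744 FPKM for Dclk3. FPKM, a fragment count corrected for gene length and library size, can be compared between genes. By this level Dclk1 ranked 472 of 26404 genes, Dcx 2408, Dclk2 3318 and Dclk3 12173. Libraries were compared by scaled fragment counts, which are fragments per gene divided by a size factor of the library. For each member the ratio of scaled count to FPKM was nearly the same in both arms, for example 113.4 and 113.4 for Dcx. The values of single libraries could therefore be set on the FPKM scale, where controls gave 213 to 246 for Dclk1, 53.8 to 55.3 for Dcx, 34.5 to 41.8 for Dclk2 and 0.692 to 0.774 for Dclk3. The ranges of neighbouring members did not overlap in controls, nor in picrotoxin cultures, where Dcx had 39.3 to 48.4 and Dclk2 30.6 to 36.8.

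With picrotoxin, Dcx, Dclk2 and Dclk3 were lower and Dclk1 was higher than in controls, at each of the 3 replicate numbers. In limma without a block, 0 of the 3 members that could be tested passed at an adjusted p under 0.05, and 1, Dcx, had an unadjusted p under 0.05. In the fit blocked on replicate number, Dcx and Dclk2 fell and Dclk1 rose. Over all 12046 genes tested without a block, 3.29% passed, 1.67% upward and 1.62% downward. With the block 9.65% rose and 10.4% fell, so that calls were common in that fit. Without a block, 17.6% of tested genes had an unadjusted p under 0.05, and 51.5% had a log2 fold change below 0. At all 3 numbers 27.0% of tested genes were lower with picrotoxin and 25.1% were higher.

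**Figure D1:**
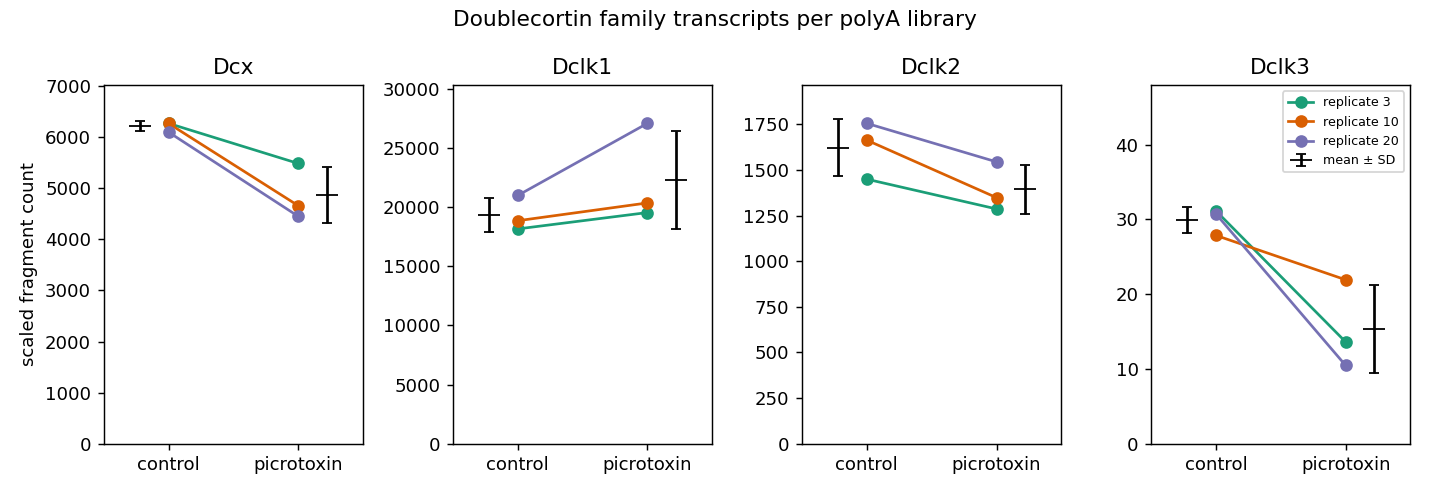
Scaled fragment counts (vertical axes, each from 0) of the 4 doublecortin family genes in control and picrotoxin cultures; coloured points and lines are the libraries of replicates 3, 10 and 20, and black marks are the mean and SD of 3 libraries. Dcx, Dclk2 and Dclk3 were lower and Dclk1 was higher with picrotoxin at each number.

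Dcx (ENSRNOG00000047712, chromosome X, 113551873 to 113628192 in the authors' table, whose build is not stated) encodes doublecortin itself. Control replicates 3, 10 and 20 gave 6273, 6272 and 6102 scaled fragment counts, whereas the picrotoxin libraries gave 5488, 4661 and 4453 in the same order. The control values lay close together, and every picrotoxin value lay below every control value. Such a separation downward was found in 11.8% of tested genes. The means were 6216 ± 98.7 and 4868 ± 548 (SD, n = 3), a ratio of 0.783. The log2 fold change, on the scale of log2(value + 1), was -0.36 (SE 0.09). It did not pass in limma (adjusted p = 0.0616), but Dcx fell in the fit blocked on replicate number (adjusted p = 6.16e-04). The authors' deposited table gives Dcx a q of 0.0331 and marks it as significant. Of the 12405 genes whose test was completed in the authors' table, 3.67% were marked and lower. With no block, Dcx passed in limma without picrotoxin replicate 3 (adjusted p = 0.0467), without picrotoxin replicate 20 (0.0453) and without both libraries of number 20 (0.0249). It did not pass in the other 6 omissions: adjusted p was 0.129 to 0.258 without picrotoxin replicate 10 or any 1 control replicate, 0.187 without both libraries of number 3, and 0.553 without both of number 10.

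The size of the Dcx difference varied among replicate numbers. On the log2 scale it was -0.19 in replicate 3, -0.43 in replicate 10 and -0.45 in replicate 20. In this polyA RNA of whole cultures, fewer cells that express a gene and less RNA per cell cannot be told apart.

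Dclk1 (ENSRNOG00000032922, chromosome 2, 164277277 to 164355201) encodes the doublecortin-like kinase that acts with Dcx in axon growth and neuronal migration. Control replicates 3, 10 and 20 gave 18160, 18853 and 20987 scaled fragment counts, whereas the picrotoxin libraries gave 19544, 20358 and 27087 in the same order. The highest value by far was that of picrotoxin replicate 20, and the groups overlapped, because control replicate 20 lay above picrotoxin replicates 3 and 10. The means were 19333 ± 1474 and 22330 ± 4140 (SD, n = 3; ratio 1.15). The log2 fold change was 0.19 (SE 0.12), with adjusted p = 0.463 in limma, and Dclk1 rose once replicate number was a block (adjusted p = 0.0411). Within replicates 3, 10 and 20 the log2 difference was 0.11, 0.11 and 0.37. Without picrotoxin replicate 20 the log2 fold change was 0.05 (limma, adjusted p = 0.734). An unnamed gene entry shares this locus in the authors' table and was listed at 0 in every library.

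Dclk2 (ENSRNOG00000016550, chromosome 2, 205516096 to 205643934) encodes the second kinase with doublecortin domains. Its scaled fragment counts for replicates 3, 10 and 20 were 1449, 1663 and 1755 under vehicle, against 1286, 1348 and 1544 under picrotoxin. Both arms had their lowest value in replicate 3 and their highest in replicate 20, and the groups overlapped because picrotoxin replicate 20 lay above control replicate 3. The means were 1622 ± 157 and 1393 ± 135 (SD, n = 3), a ratio of 0.858. The log2 fold change was -0.22 (SE 0.11) and did not pass in limma (adjusted p = 0.322). Dclk2 fell in the blocked fit (adjusted p = 0.0206). Its log2 differences in replicates 3, 10 and 20, -0.17, -0.30 and -0.18, had the smallest SD among the members, 0.072.

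Dclk3 (ENSRNOG00000033026, chromosome 8, 119040829 to 119093605) was the scarcest member. Its scaled fragment counts for replicates 3, 10 and 20 were 31.1, 27.9 and 30.7 under vehicle, against 13.6, 21.9 and 10.5 under picrotoxin. The picrotoxin values were all below the control values and differed from each other by more than the controls did. A separation downward was found in 11.8% of tested genes, a set without Dclk3. The means were 29.9 ± 1.79 and 15.3 ± 5.92 (SD, n = 3), a ratio of 0.513 and a log2 difference of -0.98. The test was restricted to genes that reached an FPKM of 1 in some arm, which Dclk3 did not. In limma without this restriction its adjusted p was 0.129, where 1.22% of 18045 genes fell. Dclk3 fell when replicate number was also a block (adjusted p = 0.00442), as did 7.98% of genes. The authors' table lists Dclk3 as not tested.

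**Figure D2:**
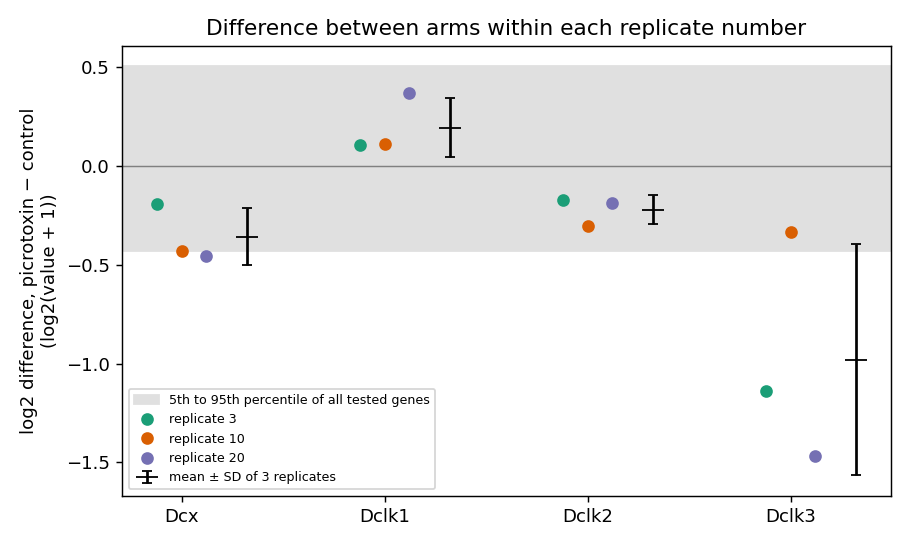
Log2 difference between picrotoxin and control (vertical axis, log2(value + 1)) within replicate 3, 10 and 20 for each family gene; black marks are the mean and SD of the 3 replicate numbers, and the grey band spans the 5th to 95th percentile of log2 fold changes of all tested genes, -0.43 to 0.51. Dclk1 is the member with 3 positive differences, and Dclk3 shows the widest scatter. The band rests on means of 3 libraries per arm, whereas each point rests on a single pair of libraries.

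The members were compared with each other by their ratio within a library. The log2 ratio of Dcx to Dclk1 scaled counts for replicates 3, 10 and 20 was -1.53, -1.59 and -1.78 under vehicle, against -1.83, -2.13 and -2.60 under picrotoxin. The groups did not overlap, and the log2 difference between picrotoxin and control was -0.55 (SE 0.237; lower at 3 of 3 replicate numbers). The ratio of Dclk1 to Dclk2 was 3.65, 3.50 and 3.58 under vehicle, against 3.93, 3.92 and 4.13 under picrotoxin, in the same order. These groups did not overlap either, and the difference was 0.41 (SE 0.082). How often the ratios of other gene pairs separate in this way was not counted. For Dcx over Dclk2 the groups overlapped, with means of 1.94 and 1.80, and the difference was -0.14 (SE 0.188). The SEs of these ratio differences treat the libraries as unpaired. Within replicate numbers the differences had an SD of 0.262 for Dcx over Dclk1, 0.137 for Dclk1 over Dclk2 and 0.125 for Dcx over Dclk2. Exact permutation tests, two-sided, gave p = 0.1 for Dcx over Dclk1, 0.1 for Dclk1 over Dclk2 and 0.4 for Dcx over Dclk2, or 0.15, 0.15 and 0.4 after Benjamini-Hochberg adjustment over the 3 pairs. The smallest p that 3 libraries against 3 allow is 0.1, so none of these differences could pass.

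On the FPKM scale Dclk1 made up 70.2%, 69.8% and 71.9% of the family sum for vehicle replicates 3, 10 and 20, against 74.3%, 76.4% and 80.7% under picrotoxin. Every picrotoxin library had a larger Dclk1 share than every control library. The Dcx share was 17.1% ± 1.29 in controls and 12.9% ± 2.86 with picrotoxin (SD, n = 3). The Dclk2 share was 11.4%, 12.5% and 12.2% under vehicle and 9.92%, 10.3% and 9.32% under picrotoxin, without overlap. That of Dclk3 was at most 0.255% in any library. The 4 shares of a library add up to 100%, so a larger Dclk1 share leaves less for the others. The scaled counts of Dclk2 themselves overlapped between arms. How often shares in other gene families separate was not counted. The sum of the 4 members was 321 ± 19.8 in controls and 339 ± 48.3 with picrotoxin (SD, n = 3), a difference smaller than the spread of the picrotoxin libraries.

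**Figure D3:**
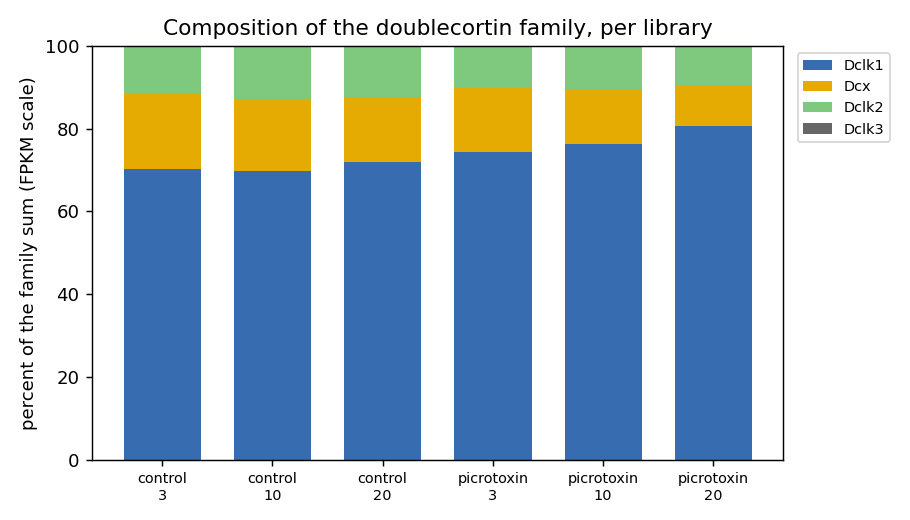
Percent of the family's summed level (vertical axis, FPKM scale) held by each gene in every control and picrotoxin library; Dclk3 is too small to be seen. The Dclk1 segment runs from 69.8% to 71.9% in controls and from 74.3% to 80.7% with picrotoxin.

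Among the 6 libraries, Dcx and Dclk1 had a Pearson correlation of -0.75 on the log2 scale, Dcx and Dclk3 0.77, Dclk1 and Dclk3 -0.72, Dclk2 and Dclk3 0.43, Dcx and Dclk2 0.40, and Dclk1 and Dclk2 0.18. These values describe 6 libraries that share arms and replicate numbers. The genes closest to Dcx across the libraries, of 11545 others with a symbol, were Fam107a (r = 0.999), Cct2 (r = 0.996) and Skap2 (r = 0.994). Fam107a encodes an actin-associated protein of stress responses, Cct2 a subunit of the cytosolic chaperonin that folds tubulin and actin, and Skap2 an adaptor of Src family kinases. Fam107a gave 237.5, 231.9 and 209.8 scaled fragment counts for vehicle replicates 3, 10 and 20, against 151, 97.1 and 84.7 under picrotoxin. This is the order of the Dcx values. The log2 fold change was -1.07 for Fam107a, -0.12 for Cct2 and -1.27 for Skap2. Since these genes were chosen for their likeness to Dcx over the same libraries, their direction is set by that choice and no test is given. For Dclk1 the closest genes were Sik3, a salt-inducible kinase, Atg16l2, a relative of an autophagy protein, and Tchp, a keratin-binding protein, with r from 0.995 to 0.997. For Dclk2 they were Xpo5, the exporter of microRNA precursors, Arnt, a transcription factor that pairs with other bHLH-PAS proteins, and Rnpep, an aminopeptidase, with r from 0.991 to 0.996. With 6 libraries high values are frequent: 81 genes had r above 0.95 with Dcx, 177 with Dclk1 and 126 with Dclk2.

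The small RNA of the same preparations gave the level of miR-129-5p. In CPM, counts scaled to library size, it was 7058, 6135 and 6450 for vehicle replicates 3, 10 and 20, against 10070.3, 8435 and 9252 under picrotoxin. Every picrotoxin value lay above every control value. How many other microRNAs separate upward in this way was not counted. In both arms, replicate 3 had the highest miR-129-5p and also the highest Dcx, in controls by 6273 against 6272 in replicate 10. Replicate 20 went the other way, with more miR-129-5p and less Dcx than replicate 10 in both arms. Its Dcx was 6102 against 6272 in controls and 4453 against 4661 with picrotoxin. The log2 difference of miR-129-5p was 0.51, 0.46 and 0.52 in replicates 3, 10 and 20, and that of Dcx ranged from -0.19 to -0.45. miR-129-5p rose 1.41-fold (log2 fold change 0.50, SE 0.09, edgeR quasi-likelihood adjusted p = 0.0378), and 1.14% of 437 microRNAs tested rose. In edgeR it also passed with replicate number as a block (adjusted p = 0.00172) and without the filter (0.0167). It passed in DESeq2 as well (adjusted p = 1.58e-04). When single libraries were left out in edgeR, it passed without control replicate 3 (adjusted p = 0.013) or 20 (0.0431). It lost its call without control replicate 10 (adjusted p = 0.332) and without picrotoxin replicate 3 (0.152), 10 (0.0982) or 20 (0.185). Libraries fall into the arms for both measures, so no correlation between them is given. Any link between miR-129-5p and Dcx was not tested.

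The authors' table of UTR lengths gives 1 length per gene entry and arm, with no replicates and no test. The single Dcx entry had a 3′ UTR of 7653 bases in controls and 7633 bases with picrotoxin, 20 bases shorter. Of 9911 entries with a 3′ UTR in both arms, 0.969% had a longer one in controls, and 75.7% differed by 20 bases or less between arms. Its 5′ UTR was 72 and 112 bases long. The Dcx message thus had one of the long 3′ UTRs of the table in both arms.

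Dclk1 had 2 entries. In the first the 3′ UTR went from 4494 bases in controls to 94 bases with picrotoxin, 4400 bases shorter. In the second it was 4926 bases in both arms. A shortening of 500 bases or more was listed for 2.56% of entries, and one of 4400 bases or more for 15 of 9911. Of 376 gene names with several such entries, 3, Dclk1 included, combined an entry shorter by 500 bases or more with another that differed by 20 bases or less. The 5′ UTR of both Dclk1 entries was 131 and 125 bases. The method behind the ends is not stated.

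Dclk2 also had 2 entries, whose 3′ UTRs were 1140 and 1309 bases in controls and 2 bases shorter each with picrotoxin. Their shared 5′ UTR was 10 bases in controls and 330 bases with picrotoxin, a gap of 320 bases that 4.71% of 9711 entries matched or exceeded. For Dclk3 lengths of 0 were listed in controls and none with picrotoxin.

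**Figure D4:**
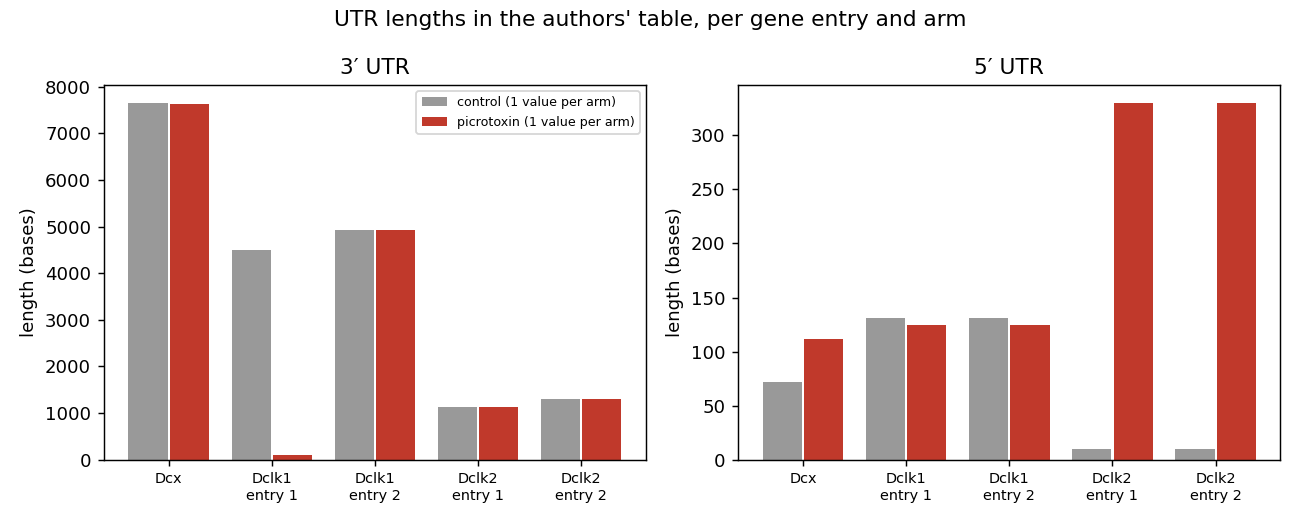
Length in bases (vertical axes) of the 3′ UTR (left) and the 5′ UTR (right) in the authors' table for each entry of Dcx, Dclk1 and Dclk2, with 1 value per arm and no error. The first Dclk1 entry drops from 4494 to 94 bases in its 3′ UTR, and the 5′ UTR of Dclk2 goes from 10 to 330 bases.

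The starts of the 4 genes in RefSeq (GRCr8, 250 bases before to 50 after) differed in base composition. G and C made up 45.0% of the Dcx stretch, 56.0% for Dclk1, 68.7% for Dclk2 and 74.0% for Dclk3, against a median of 51.7% over 33469 promoters, and the dinucleotide CG occurred 3, 13, 35 and 31 times. Searches on both strands covered TGACG (the half-site of the cAMP response element), TATAAA (the TATA box), GGGCGG (the GC box) and CANNTG (the E-box). TGACG or its complement CGTCA was found for Dclk1 alone among the 4, and in 21.2% of all promoters. The stretch around it is shown as the only match of this motif in the family. Any bearing on the Dclk1 level was not tested. The stretch lies at chr2:141782834-141782863 on the plus strand, with the match in capitals, 38 bases before the start.

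Dclk1 promoter: ctgctgggaagaCGTCAgccttacgcagga

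TATAAA was found for Dcx alone among the 4, 204 bases before the start (14.2% of all promoters held it anywhere in the stretch). The GC box was found for Dclk1, Dclk2 and Dclk3 (33.1%). The E-box was found once each for Dclk1 and Dclk3 (72.1%). A match is a run of letters and no evidence of binding.

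Related genes were read in lists. Of 22 tested doublecortin partners and regulators, 0 passed in limma and 2 had an unadjusted p under 0.05, or 9.1% against 17.6% of all tested genes. The list median was -0.04, beside -0.01 over all tested genes. The most abundant were Ywhae (a 14-3-3 protein; log2 fold change -0.14, adjusted p = 0.381) and Ap2m1 (an adaptor of endocytosis; -0.10, adjusted p = 0.598). In the blocked fit 3 of 22 fell, where 10.4% of all tested genes did: Ppp1r9a (neurabin, -0.46), L1cam (an axonal adhesion molecule, -0.39) and Usp9x (a deubiquitinase that binds doublecortin, -0.22), named after their values were seen.

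Of 31 other microtubule-associated proteins, 0 passed in limma and 1 had an unadjusted p under 0.05, or 3.2% against 17.6% of all tested genes. A log2 fold change below 0 was found for 26, or 83.9% against 51.5% (median -0.10). Map2, the dendritic member, averaged 18423 ± 1304 under vehicle and 15777 ± 4345 under picrotoxin (in scaled counts; SD, n = 3; log2 fold change -0.26, adjusted p = 0.495). Mapre2, a plus-end binding protein, was at -0.19 (adjusted p = 0.494). With the block 4 of 31 fell, where 10.4% of all tested genes did: Map1a, Map1b, Mapt and Mapre2, named after their values were seen. Of 25 motor genes, 0 passed in limma and 4 had an unadjusted p under 0.05, or 16.0% against 17.6% of all tested genes (median -0.10). With the block 5 of 25 fell, beside 10.4% of all tested genes. Klc1 and Dynll1, a kinesin and a dynein light chain, were at 0.03 and -0.13 (adjusted p = 0.881 and 0.642). Of 6 matched relatives that carry doublecortin domains outside the family, 1 was expressed enough to be tested, Dcdc2 (log2 fold change -0.15, adjusted p = 0.757).

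Genes of young neurons included 2 that fell. Of 19 tested, 0 rose and 17 did not pass, and the median was -0.24. An unadjusted p under 0.05 was found for 9, or 47.4% against 17.6% of all tested genes. In the blocked fit 8 fell and 1 rose, where 10.4% of all tested genes fell and 9.65% rose. Without a block, 1.62% of all tested genes fell. Calb2, the calcium buffer calretinin, averaged 1650.2 ± 148 under vehicle and 1178 ± 55.5 under picrotoxin (in scaled counts; SD, n = 3; log2 fold change -0.48, adjusted p = 0.0255). Neurod1, a transcription factor of differentiating neurons, had 448 ± 53.5 and 295 ± 26.2 (SD, n = 3; -0.60, adjusted p = 0.0328). Calb2 lost its call when any library other than picrotoxin replicate 20 was left out (limma adjusted p up to 0.101), and Neurod1 without control replicates 10 or 20 or picrotoxin replicates 3 or 10 (up to 0.184).

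Among 23 tested genes of neuronal migration and lissencephaly, 3 fell, 0 rose and 20 did not pass (median -0.05). All 3 encode tubulins: Tubb2b (12394 ± 822 under vehicle and 7951 ± 239.9 under picrotoxin; SD, n = 3; log2 fold change -0.64, adjusted p = 0.00451), Tubb3 (-0.53, adjusted p = 0.0164) and Tuba1a (-0.37, adjusted p = 0.0387). Tubulin genes have near-identical copies, so their separate values are uncertain. Tubb2b kept its call without any single library. Tubb3 did not pass without control replicate 10 or picrotoxin replicates 3 or 10 (limma adjusted p up to 0.0824), nor Tuba1a without any control replicate or picrotoxin replicates 3 or 10 (up to 0.139). An unadjusted p under 0.05 was found for 6 of the 23, or 26.1% against 17.6% of all tested genes. In the blocked fit 5 fell and 3 rose, where 10.4% of all tested genes fell and 9.65% rose. Without a block, 1.62% of all tested genes fell.

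Of 16 tested kinases related to the kinase domain of the Dclk proteins, 3 fell, 1 rose and 12 did not pass (median -0.15). Of these 16, 8 had an unadjusted p under 0.05, where 17.6% of all tested genes did. In the blocked fit 7 fell and 1 rose, where 10.4% of all tested genes fell and 9.65% rose. Without a block, 1.62% of all tested genes fell and 1.67% rose. Camk2a (log2 fold change -1.04, adjusted p = 0.00248), Camk4 (-0.80, adjusted p = 0.00450) and Camkv (-0.42, adjusted p = 0.0207) fell. Camk1g, which encodes a calmodulin-dependent kinase of dendrite growth, rose from 1468 ± 52.2 to 2108 ± 322 scaled fragment counts (SD, n = 3; 0.51, adjusted p = 0.0393). Camk2a and Camk4 kept their calls without any single library. Camkv lost its call without any control replicate or picrotoxin replicate 3 (limma adjusted p up to 0.138), and Camk1g without any control replicate or picrotoxin replicate 10 (up to 0.180).

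**Figure D5:**
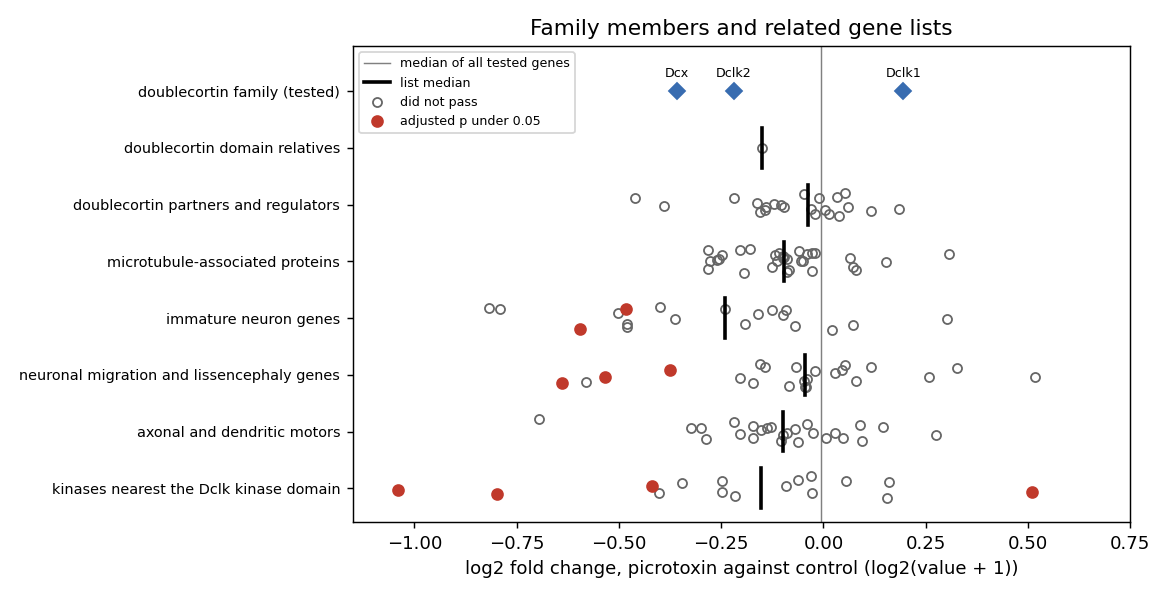
Log2 fold change, picrotoxin against control (horizontal axis, log2(value + 1)), of the 3 tested family genes (diamonds) and of the genes of 7 related lists (circles; filled where the adjusted p was under 0.05); black bars are list medians and the grey line is the median of all tested genes. The filled circles lie among genes of young neurons, tubulins and calmodulin-dependent kinases.

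Markers of cell types were read as summed scaled counts. Those of 9 excitatory neuron markers ran from 27952 to 29546 in controls and from 18550 to 22970 with picrotoxin, without overlap, and 1 of the 9 rose and 1 fell in limma; an unadjusted p under 0.05 was found for 6. Those of 11 interneuron markers ran from 15500 to 22465 and from 18871 to 30138, with 0 of 10 tested called in limma and 2 at an unadjusted p under 0.05. Dividing cell markers had 988.7 to 1160.1 in controls and 1161.1 to 1284 with picrotoxin, and astrocyte markers 6562 to 8801 and 6024 to 8358. The microglial sum was at most 27.2 in any library, with Itgam at 0, and the endothelial and mural sum at most 72.1, with Cdh5 at 0. For oligodendrocyte lineage markers it was 717 to 842 and 735 to 855, with Sox10 at 0. Of the tested markers, limma called 0 of 7 for astrocytes (0 at an unadjusted p under 0.05), 0 of 6 for dividing cells (1) and 0 of 4 for the oligodendrocyte lineage (2). In the blocked fit 4 astrocyte markers fell, 4 interneuron markers rose, and 2 excitatory markers rose and 5 fell. Also, 1 dividing cell marker rose, and 1 of the oligodendrocyte lineage rose and 1 fell. Over all tested genes 9.65% rose and 10.4% fell in that fit. Without a block 1.67% rose, 1.62% fell and 17.6% had an unadjusted p under 0.05. How often sums of other genes separate between arms was not counted. Single tested markers of microglia and of endothelial and mural cells were not called in either fit. The part of these marker shifts in the Dcx, Dclk1 and Dclk2 differences was not tested.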

How the data were processed

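The 6 polyA and 6 small RNA libraries were used. Bedtools 2.22.1, Cuffnorm, Cuffdiff, Cufflinks 2.2.1 and STAR 2.3.1z12 are listed, without their use, in the submitters' processing notes. Genome build and annotation: not given in the sources used here. The deposited gene table holds a signal, fragment counts divided by 1 size factor per library: at least 99.8% of values above 0 were whole multiples, within 0.1, of a step per library, and totals came to 11895727 to 13944778 fragments. Per the file headers, the authors' Cuffdiff table gives FPKM per arm, a log2 fold change and test statistic (scores), p-values and q-values. Per the file headers, the UTR table gives lengths in bases. The deposited small RNA files give unscaled counts of mature microRNAs, 7730222 to 10051499 per library.

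Genes with an FPKM of 1 or more in either arm (12046) were tested with limma 3.58.1 (trend, robust; R 4.3.3) on log2(value + 1). MicroRNAs were tested with edgeR 4.0.16 (quasi-likelihood, TMM, filterByExpr), with DESeq2 1.42.0 as an alternative. Both were two-sided with Benjamini-Hochberg adjustment at 0.05. Both were also run on simulated counts without a replicate effect, which do not bear on the choice of block. FPKM-scale values are scaled counts divided by the mean ratio of scaled count to FPKM. After subtraction of arm means, same-numbered libraries correlated (polyA 0.41, 0.39 and 0.55; small RNA 0.37, 0.12 and 0.40 for 3, 10 and 20), each best with its own number, so the numbers were taken to pair the libraries.

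Members and gene lists were chosen with earlier results of these data known. Named genes are the members, up to 4 called genes with the smallest adjusted p per list (or the 2 most abundant where 0 were called), and the 3 most correlated genes per tested member. Of 208 listed symbols, 200 matched the table, 3 matched through RefSeq synonyms and 5 did not; where a symbol had several entries, the most abundant was used. Alternatives were the block, pseudocounts of 0.1 and 5, other filters and scalings, limma without trend and robust, and omission of libraries.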

Additional observations from a re-analysis of the deposited data

How the results depend on the processing

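With the replicate number as a block (replicate block) the log2 fold changes of Dcx, Dclk1 and Dclk2 were the same as without it, -0.36, 0.19 and -0.22, and all 3 passed. They also passed when the filter was dropped and the block kept, an alternative chosen after seeing the data (-0.36, 0.19 and -0.22, adjusted p = 6.07e-07, 0.0104 and 0.0149). No other setting that kept all 6 libraries gave any of the 3 a call, and no sign changed among the members under any alternative. The paired sign-flip of the member ratios kept every sign (exact p = 0.25, the smallest that 3 pairs allow).

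When single libraries or both libraries of a number were left out, the log2 fold change ran from -0.45 to -0.30 for Dcx, from 0.05 to 0.28 for Dclk1, from -0.30 to -0.16 for Dclk2 and from -1.30 to -0.73 for Dclk3. Without both libraries of replicate 20, that of Dcx was -0.31. For miR-129-5p and the member ratios 1 library at a time was left out. The log2 fold change of miR-129-5p then ran from 0.43 to 0.55. Ratio differences ran from -0.73 to -0.35 for Dcx over Dclk1 and from 0.34 to 0.45 for Dclk1 over Dclk2. For Dcx over Dclk2 they ran from -0.28 to -9.2e-04.

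Genes called higher and lower numbered 1162 and 1251 with the block, 1443 and 1440 with the block and no filter, and 94 and 65 in limma without trend and robust. Omission of 1 library gave 15 to 378 higher and 14 to 516 lower, fewest without control replicate 10 and most without picrotoxin replicate 20. Omission of both libraries of a number gave 0 to 487 and 0 to 595, with 0 for numbers 3 and 10 and the most for number 20. With the block, calls numbered 3 for partners, 4 for microtubule-associated proteins, 9 for young neuron genes, 8 for migration genes, 5 for motors and 8 for kinases. With the block and no filter they numbered 4, 5, 9, 9, 6 and 8. Without trend and robust they numbered 0 for young neuron genes, 1 for migration genes and 2 for kinases. With 1 library or both libraries of a number left out they ran from 0 to 2 for partners, 0 to 2 for microtubule-associated proteins, 0 to 8 for young neuron genes, 0 to 6 for migration genes, 0 to 3 for motors and 0 to 5 for kinases. The cause of these shifts was not tested.

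The 2 planned count tests on the polyA table, edgeR and DESeq2, were not run because the table holds scaled values, a few of them far below 1 fragment. Depth limits Dclk3 most, at about 10 to 31 scaled fragments per library.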
